A study of Saccharomyces cerevisiae with 9 samples.

Results

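The strain D126 of the yeast Saccharomyces cerevisiae, in which D12-desaturase and D6-desaturase of the fungus Mucor rouxii are co-expressed, was compared with the reference strain REF. All S. cerevisiae genes read by a probe set with a single gene were set against each other, 5449 genes on 6 of the 9 arrays of the series (3 D126 and 3 REF). The remaining 3 arrays hold the strain D12, which expresses the D12-desaturase alone. All strains grew in chemostats limited by glucose and diluted at 0.1 per h, and were sampled after 5 or more residence times at steady state. The promoters, plasmids and host genotype behind the strains, and the genotype of REF, are not stated in the labels used. The fungal desaturase transcripts have no value analysed here, so the strain labels could not be checked on them. Nothing in the labels says that the 3 arrays of a strain came from separate cultures. The p-values therefore rest on the spread among these arrays alone, and that spread may be technical.

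Yeast makes its unsaturated fatty acids with a single desaturase, Ole1, which places a double bond in stearic and palmitic acid and gives monounsaturated products only. A D12-desaturase adds a further double bond to oleic acid and yields linoleic acid, from which a D6-desaturase makes gamma-linolenic acid. Both are membrane enzymes that take electrons from cytochrome b5. Transcription of yeast OLE1, of the sterol pathway and of a group of anaerobic cell wall genes is known to follow oxygen, sterol and unsaturated fatty acid supply.

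Values are on the log2 scale, as normalized by the authors. A difference is D126 minus REF on the log2 scale with its standard error (SE), and a gene is called where limma's adjusted p is under 0.05 over all 5449 genes. "Rose" and "fell" are used only of called genes. Levels of different genes are not compared, because probe sets differ in brightness.

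Between D126 and REF, 1173 genes (21.5%) were called, of which 468 (8.59%) rose and 705 (12.9%) fell. The counts of all gene lists below are to be read beside these shares of all genes. The 3 D126 values lay clear of the 3 REF values for 2612 genes (47.9%), above them for 22.2% and below them for 25.7%. Most differences were small, and 4550 genes (83.5%) lay within 0.2 of 0. Among called genes, 29 rose and 83 fell by at least 0.5, and 7 fell and 0 rose by at least 1. Single arrays changed the counts: 645 genes were called without REF replicate 2, 698 without D126 replicate 3 and 755 without REF replicate 3. The count of genes that rose was also 306 without REF replicate 1 and 310 without D126 replicate 1. Of the 1173 genes, 560 were called whichever of the 9 arrays was left out, and of these 193 rose and 367 fell. Arrays of the same strain differed with an SD over genes of 0.062 to 0.121 within D126, 0.110 to 0.170 within D12 and 0.080 to 0.114 within REF, and D126 arrays differed from REF arrays by 0.162 to 0.230. D12 replicate 3, which enters the fit's estimate of the spread, stood apart from the other D12 arrays (0.160 and 0.170), and without it 1539 genes were called.

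**Figure D1:**
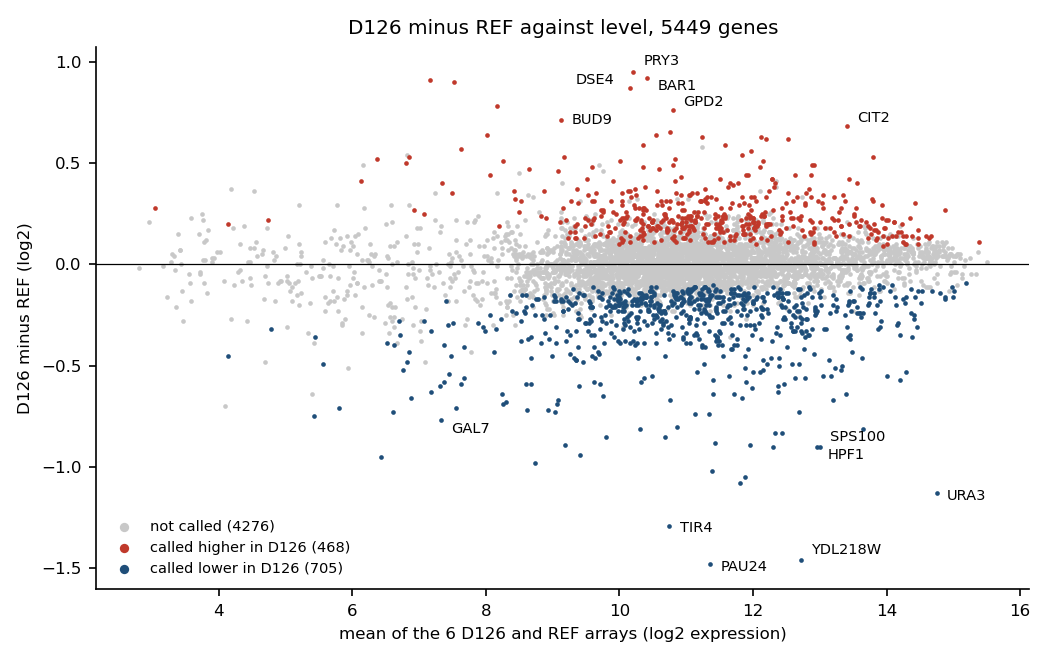
Difference between D126 and REF (vertical axis, log2) against the mean level over the 6 arrays (horizontal axis, log2 expression) for 5449 genes, with called genes in red (468 higher in D126) and blue (705 lower in D126). The decreases reach -1.48 (PAU24), while the largest increase is 0.95 (PRY3), and called genes occur over the whole range of levels.

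The 12 largest increases took in several genes of daughter cells and of the cell surface. PRY3, a cell wall protein of the sterol-binding CAP family, had values of 10.62, 10.70 and 10.71 in D126, against 9.78, 9.69 and 9.72 in REF. It rose by 0.95 (SE 0.05, adjusted p = 1.39e-05). BAR1, the secreted protease that degrades the mating pheromone alpha-factor, had 10.97, 10.85 and 10.83 in D126 and 10.09, 9.98 and 9.80 in REF, an increase of 0.92 (SE 0.07, adjusted p = 0.000162). The strains do not overlap for either gene, and the D12 values of PRY3 (9.75, 9.62 and 9.59) lay near those of REF. CIT2, the peroxisomal citrate synthase of the glyoxylate cycle, had 13.73, 13.76 and 13.74 in D126 and 13.08, 13.01 and 13.12 in REF, and rose by 0.68 (SE 0.04, adjusted p = 1.39e-05). DIP5, a permease for glutamate and aspartate, had 8.42, 8.36 and 8.23 in D126 and 7.62, 7.74 and 7.74 in REF, an increase of 0.64 (SE 0.06). SLS1, a mitochondrial membrane protein needed for expression of mitochondrially encoded genes, rose by 0.78 (SE 0.10). Its D12 values of 8.21, 7.99 and 8.38 lay between those of D126 (8.72, 8.46 and 8.51) and REF (7.81, 7.76 and 7.77). YNL034W, which has no standard name, and the retrotransposon frame YBL005W-A rose by 0.90 and 0.91, and both are read by probe sets that can also bind similar genes.

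GPD2, a glycerol-3-phosphate dehydrogenase of redox balance, was the least even of the 12. It had 11.53, 11.02 and 11.01 in D126 and 10.29, 10.16 and 10.83 in REF, a difference of 0.76 (SE 0.18, adjusted p = 0.0181). D126 replicate 1 and REF replicate 3 stand high in their groups. Leaving out D126 replicate 1 ended the call (adjusted p = 0.0548), as did leaving out REF replicate 1 (0.0623) or REF replicate 2 (0.0699).

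The 12 largest decreases were led by anaerobic cell wall genes, by URA3 and by genes of unknown or little known function. YDL218W, which has no standard name, had 11.74, 12.19 and 12.02 in D126 and 13.42, 13.49 and 13.42 in REF, and fell by 1.46 (SE 0.10, adjusted p = 5.88e-05). SET4, a SET-domain protein, had 8.77, 8.99 and 9.04 in D126 and 9.72, 9.88 and 10.03 in REF, and fell by 0.94 (SE 0.09, adjusted p = 0.000274). SHH3, a homologue of the succinate dehydrogenase subunit Sdh3, had 11.62, 12.01 and 11.89 in D126 and 12.68, 12.80 and 12.76 in REF, and fell by 0.90 (SE 0.10, adjusted p = 0.000438). In these genes D126 replicate 1 was the lowest array, and no D126 value reached the REF range. HPF1, a mannoprotein of the cell wall, had 12.40, 12.61 and 12.51 in D126 and 13.51, 13.37 and 13.37 in REF, and fell by 0.90 (SE 0.06, adjusted p = 5.81e-05). Its D12 values (13.82, 13.81 and 13.75) lay above both. AAD3, a putative aryl-alcohol dehydrogenase on a shared probe set, had 6.12, 5.92 and 5.83 in D126 and 6.80, 7.01 and 6.90 in REF, a decrease of 0.95 (SE 0.17, adjusted p = 0.00561). Unlike the other decreases listed here, AAD3 was as low in D12 (5.63, 5.73 and 6.39).

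**Figure D2:**
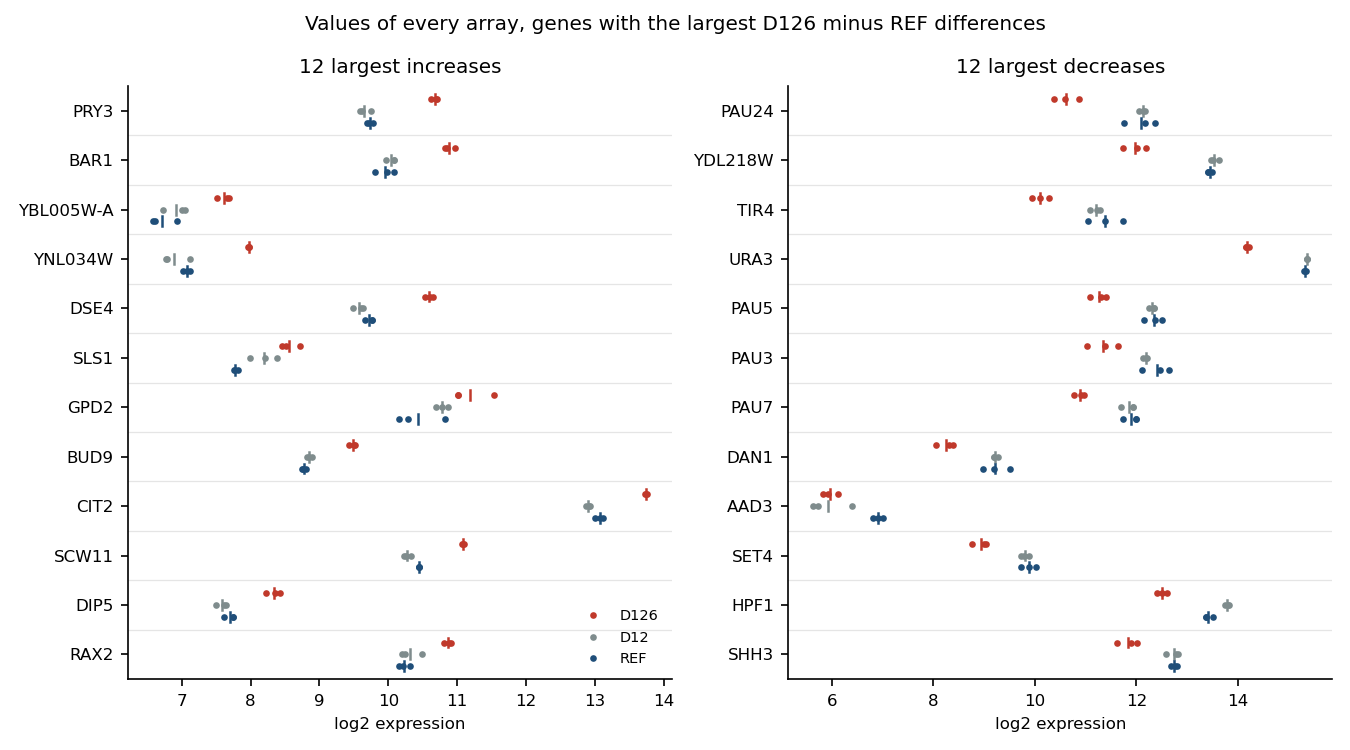
Log2 expression in each array (points) and strain mean (tick) for the 12 largest increases (left) and the 12 largest decreases (right) between D126 (red, upper) and REF (blue, lower), with D12 (grey) between them. GPD2 shows the widest spread among the increases, and the D12 points sit near REF for most genes but near D126 for AAD3.

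Most listed genes of daughter cells and cell separation rose. In budding yeast, enzymes made by the daughter cell dissolve the septum that joins it to its mother. Of 22 measured genes of daughter cells and of cell separation, 18 rose and 0 fell, against 8.59% of all genes that rose. Their median difference was 0.31, beside -0.003 over all genes, and 12 rose without REF replicate 2. The median deviation of the list from the REF mean was 0.31, 0.23 and 0.32 in the 3 D126 arrays, 0.02, -0.02 and 0.00 in the REF arrays, and -0.04 in each D12 array.

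DSE4, a glucanase that degrades the septum from the daughter side, had 10.53, 10.60 and 10.65 in D126 and 9.76, 9.76 and 9.66 in REF, an increase of 0.87 (SE 0.05, adjusted p = 2.92e-05). SCW11, a cell wall glucanase, had 11.10, 11.07 and 11.09 in D126 and 10.44 in each REF array, an increase of 0.65 (SE 0.03, adjusted p = 1.39e-05). Both genes were a little lower in D12 than in REF (9.63, 9.49 and 9.60 for DSE4, and 10.33, 10.26 and 10.23 for SCW11). Further members, named after their values were seen, were AMN1 (0.63), an inhibitor of the mitotic exit network in daughter cells, EGT2 (0.56), a septum glycoprotein, and the chitinase CTS1 (0.30). Among the regulators, ASH1, a daughter-specific repressor, rose by 0.24, MOB2, a partner of the kinase Cbk1, by 0.27, and SWI5, a transcription factor active at the end of mitosis, by 0.33. The calls of CTS1 and SWI5 were lost without REF replicate 2 (adjusted p = 0.0507 and 0.0615), and that of SWI5 also without D126 replicate 3. The 4 members that were not called were CBK1 (-0.10), CYK3 (0.10), PST1 (0.10) and SIC1 (0.13), of which SIC1 was called on the 6 D126 and REF arrays alone (adjusted p = 0.0467) and on them with the replicate block (0.0328), a fit that takes the replicate number as a term, but not with that block on all 9 arrays (0.134).

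Haploid cells bud next to the previous site through Bud3, Bud4 and their partners, and Bud8 and Bud9 mark opposite poles in diploid cells. Of 24 genes of bud-site selection and polarity, 12 rose and 0 fell, with a median of 0.11. The count was 6 without REF replicate 3, 7 without REF replicate 2 and 7 without D126 replicate 1. BUD9, the landmark of the birth-scar pole, had 9.52, 9.43 and 9.50 in D126 and 8.81, 8.76 and 8.75 in REF, an increase of 0.71 (SE 0.04, adjusted p = 1.39e-05). RAX2, a partner of Bud8 and Bud9, had 10.81, 10.91 and 10.88 in D126 and 10.32, 10.22 and 10.15 in REF, an increase of 0.64 (SE 0.08, adjusted p = 0.000662). The landmark of the opposite pole, BUD8, named after its values were seen, differed by 0.04 and was not called. GIC2, an effector of the polarity GTPase Cdc42, rose by 0.52 and MSB2, a mucin-like sensor of filamentous growth, by 0.42, while CDC42 itself differed by 0.03.

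Markers of mating type and cell type were measured in every array. All 7 a-specific genes, all 4 alpha-specific genes and all 7 haploid markers lay above the background limit of the array (5.64), as did 9 of 10 sporulation markers, with SPS2 below it. The mean level over the 7 MATa markers ran from 11.71 to 11.74 in D126, from 11.31 to 11.41 in D12 and from 11.23 to 11.37 in REF. The mean over the 4 MATalpha markers ran from 7.93 to 8.03 in D126, from 7.92 to 8.09 in D12 and from 7.87 to 7.92 in REF. For sporulating cells these means ran from 7.62 to 7.65 in D126, from 7.75 to 7.98 in D12 and from 7.72 to 7.81 in REF. The part of other cell types in the results was not tested. In a bulk array, more cells that express a gene and more RNA of it per cell cannot be told apart.

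Of the 7 a-specific genes, 6 rose and 0 fell, with a median of 0.39. MFA2, which encodes the pheromone a-factor, had 12.42, 12.53 and 12.56 in D126 and 11.94, 11.82 and 11.89 in REF, an increase of 0.62 (SE 0.08, adjusted p = 0.000775). MFA1, the other a-factor gene, had 13.21, 13.09 and 13.09 in D126 and 12.73, 12.57 and 12.63 in REF, an increase of 0.49 (SE 0.07, adjusted p = 0.00163). STE6, the a-factor exporter, had 11.86, 11.92 and 11.92 in D126 and 11.50, 11.53 and 11.49 in REF, an increase of 0.39 (SE 0.04, adjusted p = 0.000543). All D126 values of these genes lay above the REF range and the alpha-factor receptor gene STE2 rose by 0.21. STE2 was not called without D126 replicate 2, D126 replicate 3, REF replicate 3 or REF replicate 2 (adjusted p = 0.0715 without the last). The member that was not called was ASG7 (0.21, adjusted p = 0.126).

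Other genes of mating gave calls in both directions. Of 28 haploid-specific and pheromone response genes, 7 rose (25%, beside 8.59% of all genes) and 3 fell (10.7%, near the 12.9% of all genes). Without D126 replicate 1, 4 rose, while 1 fell without REF replicate 2 and 1 without REF replicate 3. HO, the mating type switching endonuclease, had 11.06, 11.01 and 11.09 in D126 and 10.58, 10.46 and 10.64 in REF, an increase of 0.49 (SE 0.07). FUS3, the kinase of the pheromone pathway, rose by 0.29 (SE 0.04), and RME1, a repressor of meiosis, fell by 0.37 (SE 0.07). Among alpha-specific genes, MF(ALPHA)1 had 6.59, 6.74 and 6.56 in D126 and 6.06, 6.16 and 6.12 in REF, close to the background limit, and rose by 0.52 (SE 0.09, adjusted p = 0.00527). The alpha-specific genes STE3 (-0.12) and SAG1 (-0.16) were not called. With the replicate block on the 6 arrays both were (adjusted p = 0.046 and 0.0367), and on all 9 arrays neither was (0.0724 and 0.147), while SAG1 was also called on the 6 arrays without the block (0.0285).

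Of 29 genes of sporulation, 1 rose and 7 fell, with a median of -0.11, beside 12.9% of all genes that fell, and 4 fell without REF replicate 2, D126 replicate 1 or D126 replicate 3. SPS100, a spore wall protein, had 12.23, 12.78 and 12.65 in D126 and 13.31, 13.49 and 13.55 in REF, and fell by 0.90 (SE 0.14, adjusted p = 0.00235). SPS4 had 7.84, 7.90 and 7.99 in D126 and 7.34, 7.34 and 7.33 in REF, and rose by 0.57 (SE 0.11, adjusted p = 0.00793). The master regulators IME1 (0.02) and NDT80 (-0.05), named after their values were seen, were not called.

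A minority of the cell cycle genes were called. Of 28 cyclins and cell cycle regulators, 8 rose and 0 fell, with a median of 0.09. CLN3, the most upstream G1 cyclin, had 10.80, 10.72 and 10.70 in D126 and 10.57, 10.28 and 10.30 in REF, an increase of 0.36 (SE 0.07, adjusted p = 0.00933). CLN1, a later G1 cyclin, had 10.58, 10.54 and 10.60 in D126 and 10.33, 10.11 and 10.14 in REF, an increase of 0.38 (SE 0.06). CLB2, the main mitotic cyclin, had 9.56, 9.60 and 9.49 in D126 and 9.13, 9.23 and 9.18 in REF, an increase of 0.37 (SE 0.06). No D126 value of these cyclins fell within the REF range. CDC6, which licenses replication origins, rose by 0.46 (SE 0.06). The cyclin-dependent kinase gene CDC28 differed by 0.00 and the S-phase cyclin CLB5 by 0.05, both named after their values were seen.

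Of 26 genes of DNA replication and licensing, 2 rose and 5 fell with a median of 0.00. These are 7.69% and 19.2% of the list, beside 8.59% and 12.9% of all genes. CDC6 is in this list and in that of cell cycle regulators. Without REF replicate 2, REF replicate 3 or D126 replicate 3, 3 fell. RNR1, the large subunit of ribonucleotide reductase, had 12.36, 12.22 and 12.27 in D126 and 12.06, 11.98 and 12.09 in REF, and rose by 0.24 (SE 0.04). RNR3, a large subunit known for its induction by DNA damage, had 10.01, 10.10 and 10.06 in D126 and 10.36, 10.54 and 10.65 in REF, and fell by 0.46 (SE 0.07, adjusted p = 0.0022). RNR2, the small subunit, fell by 0.27 (SE 0.03). Of 9 histone genes, 4 rose and 0 fell, led by HTB2 (0.33, SE 0.05), but 2 rose without REF replicate 2, REF replicate 3 or D126 replicate 3.

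Cell wall genes outside the daughter-cell program moved both ways. Of 35 genes of glucan, chitin and mannoproteins, 10 rose and 6 fell, and 5 rose without REF replicate 2. The shares were 28.6% and 17.1%, beside 8.59% and 12.9% of all genes. UTR2, a transglycosylase that links chitin to glucan, had 11.97, 12.15 and 12.19 in D126 and 11.59, 11.45 and 11.64 in REF, an increase of 0.54 (SE 0.12, adjusted p = 0.012), and its adjusted p was 0.0512 without REF replicate 2. CWP1, a mannoprotein of the birth scar, had 11.22, 11.04 and 10.98 in D126 and 11.42, 11.48 and 11.57 in REF, and fell by 0.41 (SE 0.07). CRR1, a transglycosylase of the spore wall, fell by 0.43 (SE 0.08).

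**Figure D3:**
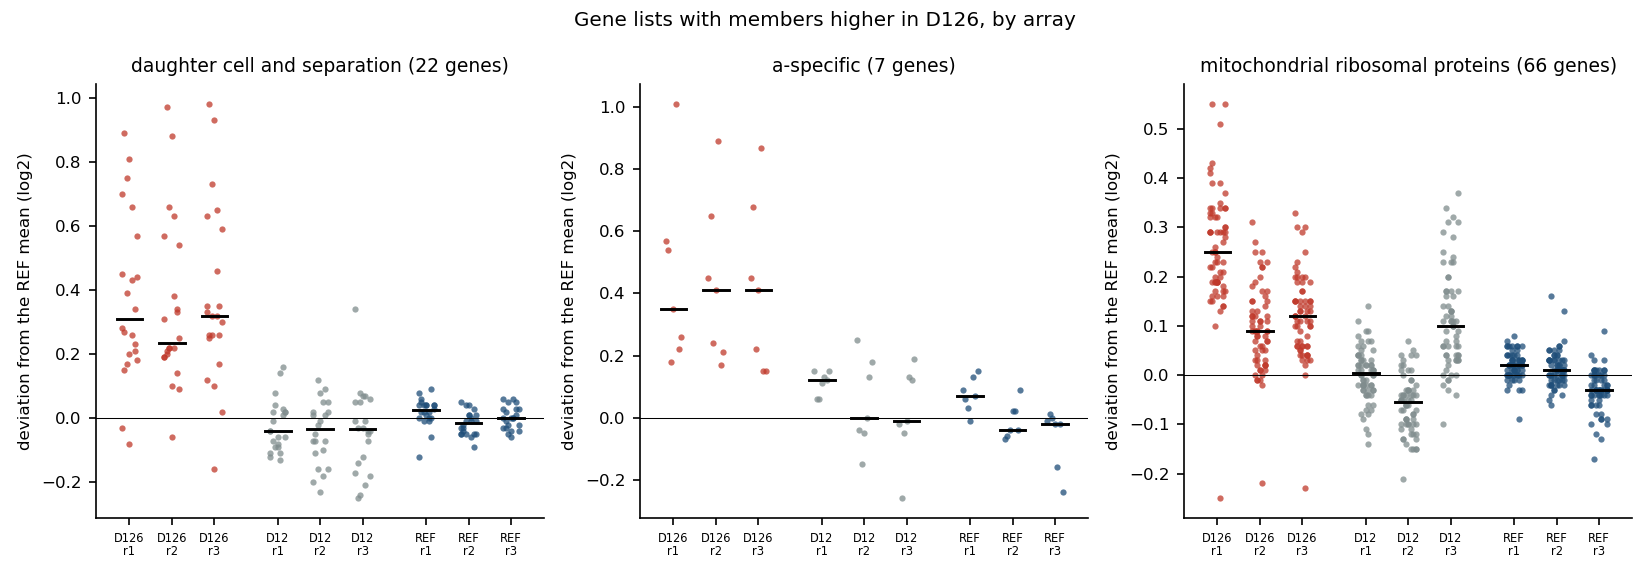
Deviation of each gene from its REF mean (vertical axis, log2) in every array (horizontal axis, r1 to r3 are the replicates), with the median as a bar, for daughter-cell and separation genes, a-specific genes and mitochondrial ribosomal protein genes. The D126 medians are 0.31, 0.23 and 0.32 for the first group and 0.25, 0.09 and 0.12 for the mitochondrial ribosomal proteins, where D12 replicate 3 also lies at 0.10.

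Mitochondrial ribosomes translate the few proteins encoded by mitochondrial DNA, most of them subunits of the respiratory chain. Of 66 mitochondrial ribosomal protein genes, 65 lay above 0 with a median of 0.16, and 18 rose and 1 fell. With the replicate block 36 rose on the 6 arrays (30 without the block) and 18 on all 9. The count that rose was 7 without REF replicate 2, 8 without REF replicate 3, 9 without D126 replicate 1, 10 without REF replicate 1, 11 without D126 replicate 3 and 31 without D12 replicate 3. RSM27 had 11.10, 10.99 and 11.01 in D126 and 10.74, 10.63 and 10.68 in REF, an increase of 0.35 (SE 0.06, adjusted p = 0.00255). MRP10 had 12.10, 11.92 and 11.97 in D126 and 11.69, 11.63 and 11.68 in REF, an increase of 0.33 (SE 0.05), and MRPS12 rose by 0.30 (SE 0.04). All 3 encode small subunit proteins, and D126 replicate 1 was the highest array in each.

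Of 41 genes of the respiratory chain and the ATP synthase, 13 rose and 1 fell (2 without D126 replicate 1 or with the replicate block on the 6 arrays), with a median of 0.11 and 38 genes above 0. The count that rose was 6 without REF replicate 3, 7 without REF replicate 2 or D126 replicate 3, and 8 without D126 replicate 1. ATP14, a subunit of the ATP synthase, had 13.73, 13.64 and 13.67 in D126 and 13.43, 13.37 and 13.38 in REF, an increase of 0.28 (SE 0.04, adjusted p = 0.00228). ATP19, a subunit linked to dimers of that enzyme, rose by 0.31 (SE 0.07). NDE2, an NADH dehydrogenase on the outer face of the inner membrane, had 12.42, 12.45 and 12.44 in D126 and 12.74, 12.77 and 12.79 in REF, and fell by 0.33 (SE 0.04, adjusted p = 0.000547).

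Of 32 genes of the tricarboxylic acid and glyoxylate cycles and linked reactions, 11 rose and 1 fell, with a median of 0.12. The count that fell was 0 with the replicate block on all 9 arrays and 2 on the 6 arrays without it. The median deviation of this list from the REF mean was 0.21, 0.06 and 0.05 in the 3 D126 arrays, so that D126 replicate 1 lay above the other two, and 0.03, -0.02 and -0.03 in REF. CIT3, a mitochondrial citrate and methylcitrate synthase, had 12.44, 12.38 and 12.38 in D126 and 11.97, 11.86 and 11.83 in REF, an increase of 0.51 (SE 0.05, adjusted p = 0.000332). PDH1, the methylcitrate dehydratase, had 13.79, 13.74 and 13.75 in D126 and 13.37, 13.33 and 13.36 in REF, an increase of 0.40 (SE 0.04, adjusted p = 0.000283). ICL2, the methylisocitrate lyase, had 12.58, 12.43 and 12.52 in D126 and 12.23, 12.08 and 12.06 in REF, an increase of 0.38 (SE 0.05). These 3 enzymes act in the breakdown of propionyl-CoA through methylcitrate, and their D126 values did not overlap those of REF. The glyoxylate cycle enzymes ICL1 (0.10) and MLS1 (0.23), named after their values were seen, were not called, though MLS1 was with the replicate block on the 6 arrays (adjusted p = 0.00753) and on all 9 (0.0379).

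Cytosolic ribosomal protein genes lay slightly above 0, at 122 of 128, with a median of 0.06. Of these, 11 rose and 0 fell, close to the 8.59% of all genes, and the count was 3 without D126 replicate 3, 4 without REF replicate 2, 5 without REF replicate 3, 6 without REF replicate 1, 24 without D12 replicate 3, 23 on the 6 arrays alone and 7 with the replicate block on all 9. RPS22A had 14.10, 13.99 and 14.02 in D126 and 13.84, 13.82 and 13.78 in REF, an increase of 0.23 (SE 0.04). Of 77 ribosome biogenesis genes, 58 lay below 0 with a median of -0.05, and 2 rose and 4 fell. With the replicate block 8 fell on the 6 arrays, and on all 9 arrays 3 fell and 1 rose. The count that fell was 0 without REF replicate 2, REF replicate 3 or D126 replicate 1, 1 without D126 replicate 2 and 2 without REF replicate 1. The count that rose was 1 without REF replicate 2, REF replicate 3, D126 replicate 2 or D126 replicate 3. The median deviation of this list was -0.16 in D126 replicate 1, and 0.00 in D126 replicates 2 and 3.

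Of 28 genes of glycolysis and alcoholic fermentation, 1 rose and 6 fell, with a median of -0.04, and 2 fell without REF replicate 2, REF replicate 3 or D126 replicate 3, and 3 without D126 replicate 2. With either replicate block 0 rose. PDC6, a minor pyruvate decarboxylase, had 10.85, 10.97 and 10.87 in D126 and 11.31, 11.47 and 11.49 in REF, and fell by 0.53 (SE 0.08, adjusted p = 0.00164). Of 12 glycerol genes, GPD2 rose, 5 fell and 6 were not called, with a median of -0.06, and 3 fell without REF replicate 3. DAK2, a dihydroxyacetone kinase, had 7.40, 7.51 and 7.26 in D126 and 7.81, 7.98 and 8.06 in REF, and fell by 0.56 (SE 0.08, adjusted p = 0.00217). YPR1, an NADPH-dependent aldo-keto reductase, fell by 0.35 (SE 0.04, adjusted p = 0.000969). GPD1, the osmotically regulated counterpart of GPD2 and named after its values were seen, fell by 0.24 (adjusted p = 0.00371).

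All strains were fed glucose. Of 9 genes of the galactose regulon, 1 rose and 5 fell, with a median of -0.21 (-0.12 with quantile normalization). The count that fell was 3 without REF replicate 1 or with the replicate block on all 9 arrays, and 2 without REF replicate 2 or D126 replicate 2. GAL7, the uridyltransferase of galactose use, had 7.01, 7.07 and 6.74 in D126 and 7.71, 7.73 and 7.69 in REF, and fell by 0.77 (SE 0.11, adjusted p = 0.00148). GAL1, the galactokinase, had 8.54, 8.43 and 8.50 in D126 and 8.85, 8.85 and 8.86 in REF, and fell by 0.36 (SE 0.06, adjusted p = 0.00342). GAL10, also among the 5 decreases, lay below the background limit in all D126 and REF arrays. PGM2 is another of the 5, and is also in the lists below of general stress genes and of trehalose and glycogen metabolism. GAL80, the repressor of the regulon, was the member that rose (0.24, adjusted p = 0.00278), named after its values were seen. Of 8 maltose genes, limma called 0 (0 also at an unadjusted p under 0.05), and MAL13 (-0.09) and MAL33 (0.08) had the largest differences.

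Hexose transport and glucose sensing genes lay mostly below 0, at 18 of 23, with a median of -0.12, and 2 rose and 3 fell. These are 8.7% and 13% of the list, near the 8.59% and 12.9% of all genes. With the replicate block 8 fell on the 6 arrays (6 without the block), and on all 9 arrays 2 fell and 1 rose. The count that fell was 1 without REF replicate 2, D126 replicate 1 or D126 replicate 3, and 5 without D12 replicate 2 or D12 replicate 3, and the count that rose was 1 without REF replicate 1, REF replicate 2, D126 replicate 2 or D126 replicate 3. HXT5, a hexose transporter of slowly growing cells, had 13.95, 14.10 and 14.04 in D126 and 14.35, 14.39 and 14.40 in REF, and fell by 0.35 (SE 0.06, adjusted p = 0.00313). RGT2, a sensor of high glucose, had 10.38, 10.42 and 10.45 in D126 and 10.19, 10.01 and 10.03 in REF, an increase of 0.34 (SE 0.05, adjusted p = 0.0014).

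Under phosphate shortage the factor Pho4 activates phosphatases and high-affinity transporters. Of 22 genes of that regulon, 0 rose and 8 fell, and 4 fell without REF replicate 2, REF replicate 3, D126 replicate 1 or D126 replicate 3. PHM8, a nucleotidase, had 9.29, 9.62 and 9.40 in D126 and 9.92, 10.22 and 10.11 in REF, and fell by 0.65 (SE 0.09, adjusted p = 0.00152). GIT1, a glycerophosphoinositol transporter, had 8.43, 8.52 and 8.40 in D126 and 8.78, 8.84 and 8.83 in REF, and fell by 0.37 (SE 0.04, adjusted p = 0.000608). PHO84, the high-affinity transporter, had 8.06, 8.52 and 8.20 in D126 and 8.62, 8.95 and 9.36 in REF, and fell by 0.72 (SE 0.18, adjusted p = 0.0236). Its call was lost without REF replicate 2 (0.0676), REF replicate 3 (0.0633), D126 replicate 1 (0.0814) or D126 replicate 3 (0.0744). The acid phosphatase PHO5 (0.01) and the regulator PHO81 (-0.01), named after their values were seen, were not called.

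Amino acid genes changed in a few places. Of 13 genes of leucine, isoleucine and valine synthesis, 4 rose and 0 fell, with a median of 0.13. LEU2, an enzyme of leucine synthesis often used as a plasmid marker, had 13.47, 13.43 and 13.46 in D126 and 13.16, 13.14 and 13.22 in REF, an increase of 0.28 (SE 0.04, adjusted p = 0.00102). BAT2, the cytosolic branched-chain aminotransferase, had 13.29, 13.12 and 13.15 in D126 and 12.95, 12.91 and 12.85 in REF, an increase of 0.28 (SE 0.05). HIS3, another common marker, had 12.87, 13.01 and 13.05 in D126 and 12.85, 12.73 and 12.96 in REF and was not called (0.13, adjusted p = 0.264), though it was with array weights (0.0052). TRP1 has no value here. Of 24 permeases, 2 rose and 0 fell, which is 8.33%, near the 8.59% of all genes. With the replicate block 6 permeases rose on the 6 arrays (4 without the block) and 2 on all 9. The count of permeases that rose was 1 without REF replicate 2 or any D126 replicate, and 4 without REF replicate 1 or D12 replicate 3.

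URA3, which encodes the last enzyme of uridine monophosphate synthesis and is a common selection marker, was the decrease with the smallest p. It had 14.17, 14.22 and 14.17 in D126 and 15.32, 15.30 and 15.34 in REF, and its D12 values were 15.37, 15.36 and 15.36. It fell by 1.13 (SE 0.03, adjusted p = 1.29e-07). No other listed pyrimidine gene was called lower. URA1, the dihydroorotate dehydrogenase, had 12.79, 12.88 and 12.82 in D126 and 12.11, 12.23 and 12.31 in REF, an increase of 0.62 (SE 0.06, adjusted p = 0.000283). URA2, which catalyses the entry steps, had 14.35, 14.33 and 14.33 in D126 and 14.15, 14.09 and 14.15 in REF, an increase of 0.20 (SE 0.03, adjusted p = 0.0017). URA4 (0.05) and URA5 (0.00), named after their values were seen, were not called. The uracil permease FUR4 differed by 0.12 and the activator PPR1 by -0.14, also not called. Of all 17 pyrimidine genes, 3 rose and 1 fell, and 2 fell without D12 replicate 1, D12 replicate 3 or D126 replicate 2, and on the 6 arrays with or without the replicate block.

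Of 9 genes of Ole1, its regulators and its electron chain, 0 rose and 2 fell, with a median of -0.04. The count that fell was 1 without REF replicate 3, D126 replicate 1 or D126 replicate 3, and 4 without D12 replicate 3. OLE1 had 14.49, 14.59 and 14.60 in D126 and 14.68, 14.66 and 14.66 in REF, a difference of -0.11 (SE 0.04, adjusted p = 0.0602). It passed the test with quantile normalization (0.0305), array weights (0.0184) or trended and robust moderation (0.0184), and without D12 replicate 3 (0.0493). All D126 values lay below the REF range, with D126 replicate 1 the lowest. CYB5, cytochrome b5, had 13.12, 13.31 and 13.31 in D126 and 13.58, 13.61 and 13.65 in REF, and fell by 0.36 (SE 0.06, adjusted p = 0.00216). CBR1, the reductase that feeds it, had 13.34, 13.42 and 13.41 in D126 and 13.30, 13.30 and 13.28 in REF (0.10, adjusted p = 0.161), and passed the test with array weights (0.00698). MGA2, an activator of OLE1, had 10.96, 11.01 and 10.98 in D126 and 11.13, 11.11 and 11.19 in REF, and fell by 0.16 (SE 0.04, adjusted p = 0.0187), a call lost without REF replicate 3 (0.0719), D126 replicate 1 (0.0546) or D126 replicate 3 (0.0636). SPT23, its paralogue, had 11.24, 11.24 and 11.27 in D126 and 11.51, 11.44 and 11.39 in REF (-0.20, adjusted p = 0.0501). SPT23 passed the test in 10 of 19 alternatives, among them without D12 replicate 3 (0.00519), on the 6 arrays alone (0.00887) and on these with the replicate block (0.018), but not with the block on all 9 arrays (0.0835).

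Of 11 genes of fatty acid synthesis and elongation, 0 rose and 2 fell. ACC1, acetyl-CoA carboxylase, had 14.42, 14.40 and 14.39 in D126 and 14.56, 14.53 and 14.52 in REF, and fell by 0.13 (SE 0.03, adjusted p = 0.0151), a call lost without REF replicate 1, D126 replicate 2 or D126 replicate 3 (0.0501 to 0.0614). Both decreases depended on single arrays: 0 genes of the list fell without REF replicate 1 or D126 replicate 3, and 1 fell without REF replicate 2, REF replicate 3 or D126 replicate 2. FAA3, an acyl-CoA synthetase for long chains, had 11.48, 11.45 and 11.47 in D126 and 11.13, 11.08 and 11.07 in REF, an increase of 0.37 (SE 0.05, adjusted p = 0.00129). POT1 and ECI1, enzymes of peroxisomal beta-oxidation, fell by 0.36 (SE 0.06) and 0.40 (SE 0.07). ECI1, the isomerase needed for unsaturated acids, had 11.53, 11.53 and 11.48 in D126 and 11.98, 11.93 and 11.81 in REF. YAT1, a carnitine acetyltransferase, had 13.09, 13.00 and 12.99 in D126 and 12.67, 12.49 and 12.82 in REF, an increase of 0.37 (SE 0.07). Of the 25 genes of beta-oxidation and the carnitine shuttle, 2 rose and 4 fell, which is 8% and 16%, near the shares over all genes. With the replicate block 7 fell on the 6 arrays (6 without the block) and 3 on all 9. The count that fell was 2 without REF replicate 1, D126 replicate 1 or D126 replicate 3, and the count that rose was 1 without REF replicate 2 or D126 replicate 1.

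The sterol pathway lay below REF along most of its length. All 15 genes after farnesyl diphosphate lay below 0 with a median of -0.18, and 10 of them fell and 0 rose. The median deviation of this list was -0.23, -0.15 and -0.16 in the D126 arrays, -0.03, -0.04 and -0.08 in the D12 arrays, and -0.01, -0.01 and 0.02 in the REF arrays. ERG24, the C-14 sterol reductase, had 13.16, 13.33 and 13.30 in D126 and 13.66, 13.69 and 13.74 in REF, and fell by 0.43 (SE 0.06, adjusted p = 0.00156). ERG7, lanosterol synthase, had 12.79, 12.89 and 12.88 in D126 and 13.05, 13.07 and 13.13 in REF, and fell by 0.23 (SE 0.04, adjusted p = 0.00436). NCP1, the reductase that supplies electrons to the sterol demethylase, had 13.05, 13.19 and 13.15 in D126 and 13.35, 13.35 and 13.38 in REF, and fell by 0.23 (SE 0.04, adjusted p = 0.00499). ERG11, that demethylase, differed by -0.13 (adjusted p = 0.0727) and ERG25 by -0.05, both named after their values were seen and not called. In the mevalonate part, 4 of 10 genes fell and 0 rose, 2 fell without REF replicate 3 and 7 without D12 replicate 3. ERG13, HMG-CoA synthase, had 13.68, 13.78 and 13.80 in D126 and 13.97, 13.94 and 13.95 in REF, and fell by 0.20 (SE 0.04, adjusted p = 0.00851). ERG12, mevalonate kinase, fell by 0.12 (adjusted p = 0.0334), a call that the replicate block ended on the 6 arrays (0.0502) and on all 9 (0.0623) and that was lost without any 1 of the REF or D126 arrays (0.0513 to 0.102).

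Of 16 genes of sterol uptake and of sterol and oxygen response, 1 rose and 7 fell (43.8%, beside 12.9% of all genes). The count that fell was 4 without REF replicate 3 or D126 replicate 3. Among the 7 is the mannoprotein gene DAN1, which is also in the list of anaerobic mannoproteins below. HAP1, the heme-responsive activator, averaged 12.10 ± 0.09 in D126 and 12.48 ± 0.03 in REF (SD, n = 3 arrays each), and fell by 0.38 (SE 0.05, adjusted p = 0.000753). PDR11, a sterol import transporter, had 10.11, 10.19 and 10.16 in D126 and 10.38, 10.40 and 10.47 in REF, and fell by 0.26 (SE 0.04, adjusted p = 0.00244). UPC2, the sterol-sensing activator, had 9.12, 9.55 and 9.57 in D126 and 9.65, 9.86 and 9.94 in REF, and fell by 0.41 (SE 0.12, adjusted p = 0.0462). The UPC2 call did not survive leaving out D126 replicate 1 (0.0989), 2 (0.0515) or 3 (0.0518), D12 replicate 2 (0.0629), REF replicate 2 (0.13) or REF replicate 3 (0.142). It was also lost with quantile normalization (0.0582), on the 6 arrays alone (0.0574), with the replicate block on all 9 arrays (0.0643) and with all probe sets tested (0.121), while with the block on the 6 arrays the adjusted p was 0.00427. Of 9 genes of heme synthesis, 0 rose and 2 fell (22.2%, beside 12.9% of all genes). Their median was -0.04, with 4 genes above 0, and 1 rose with the replicate block on the 6 arrays. The decreases were HEM13, by 0.26 (SE 0.05), and HEM14, by 0.30 (SE 0.04). HEM14 had 10.46, 10.57 and 10.50 in D126 and 10.81, 10.84 and 10.78 in REF.

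TIR4, a mannoprotein needed for anaerobic growth, had 9.94, 10.28 and 10.10 in D126 and 11.04, 11.39 and 11.74 in REF, and fell by 1.29 (SE 0.16, adjusted p = 0.000757). DAN1, a mannoprotein repressed by oxygen, had 8.06, 8.38 and 8.31 in D126 and 8.98, 9.19 and 9.50 in REF, and fell by 0.98 (SE 0.12). PAU5, a seripauperin, had 11.09, 11.40 and 11.30 in D126 and 12.16, 12.37 and 12.50 in REF, and fell by 1.08 (SE 0.10). In each of these, REF replicate 3 was the highest and REF replicate 1 the lowest of the REF arrays, and D126 replicate 1 was the lowest of all. Of 10 anaerobic mannoproteins 6 fell, and of 13 seripauperins 8 fell, 0 rising in either list, beside 12.9% of all genes that fell. PAU23 and PAU24 are in both lists, so the lists are not separate groups. The mannoprotein list also holds CWP1 and CWP2, which belong to neither the DAN, TIR nor PAU genes and are not taken as anaerobic genes. CWP1 is among its 6 decreases and is also counted with the cell wall genes above. The medians were -0.61 and -0.60. Of the 13 seripauperin genes, 10 are read by shared probe sets, so their values may mix members of the family. TIR2 (0.03), DAN4 (0.00) and CWP2 (0.05), named after their values were seen, were not called.

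Of 12 hypoxic isoforms and enzymes, 0 rose and 2 fell (CYB5 and HEM13), which is 16.7% and near the 12.9% of all genes, with a median of -0.12, and 4 fell without D12 replicate 3. COX5B (-0.12), ANB1 (-0.14) and AAC3 (-0.05), textbook hypoxic genes named after their values were seen, were not called.

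**Figure D4:**
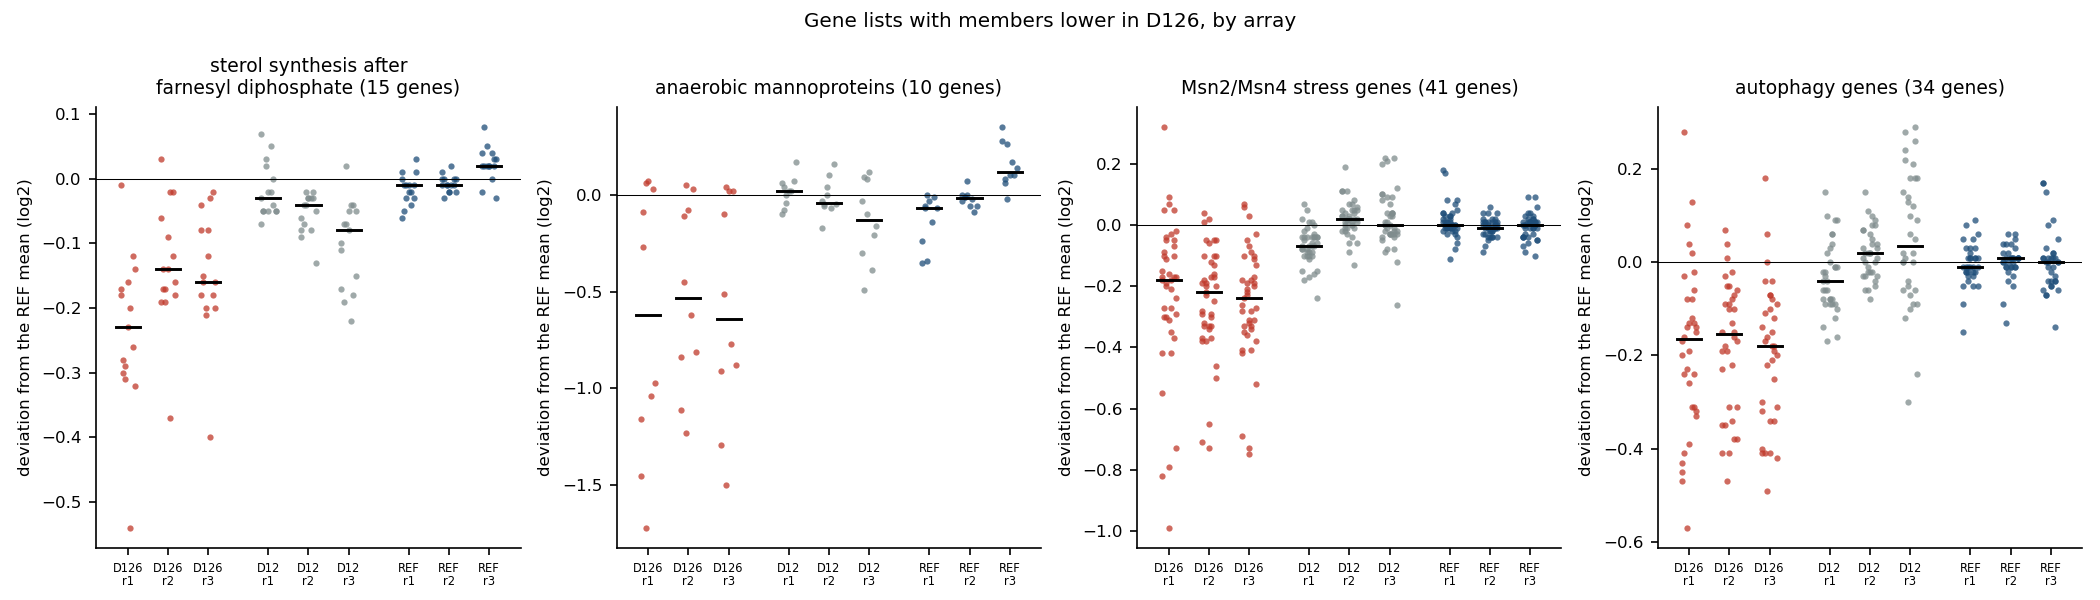
Deviation of each gene from its REF mean (vertical axis, log2) in every array (r1 to r3 are the replicates), with the median as a bar, for sterol genes after farnesyl diphosphate, anaerobic mannoproteins, general stress genes and autophagy genes. The D126 medians are -0.62, -0.53 and -0.64 for the mannoproteins and -0.17, -0.15 and -0.18 for autophagy, and REF replicate 3 lies at 0.12 for the mannoproteins.

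Most listed general stress genes fell. Msn2 and Msn4 are factors that activate many such genes when growth slows or cells are stressed. HSP30 is in the list as a stress gene and is not taken as their target. Of 41 listed genes, which include MSN2, MSN4 and the kinase genes YAK1 and RIM15 beside targets, 31 fell and 0 rose, with a median of -0.24, beside 12.9% of all genes that fell. The median deviation was -0.18, -0.22 and -0.24 in the D126 arrays, against 0.00 in each REF array. RTN2, a reticulon-like protein of the endoplasmic reticulum, had 12.26, 12.40 and 12.30 in D126 and 13.07, 13.03 and 13.06 in REF, and fell by 0.73 (SE 0.05, adjusted p = 5.88e-05). CTT1, the cytosolic catalase, had 10.68, 10.79 and 10.81 in D126 and 11.68, 11.41 and 11.43 in REF, and fell by 0.74 (SE 0.08, adjusted p = 0.000547). HSP30, a plasma membrane heat shock protein, had 13.07, 13.33 and 13.33 in D126 and 13.95, 14.12 and 14.10 in REF, and fell by 0.81 (SE 0.07). For each of them every D12 array lay above every D126 array.

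Of 20 genes of trehalose and glycogen metabolism, 0 rose and 9 fell. The count that fell was 4 without REF replicate 2 and 5 without REF replicate 1, D126 replicate 2 or D126 replicate 3. This list shares members with the general stress genes, among them TSL1 and PGM2. So do the lists below of oxidative stress defence (CTT1) and of chaperones (SSA4), and these decreases are counted in both lists. PGM2 fell by 0.31 (SE 0.08, adjusted p = 0.0227), a call lost with the replicate block on all 9 arrays (0.0563). It was also lost without REF replicate 1 (0.0783), REF replicate 2 (0.0668), D126 replicate 2 (0.074) or D126 replicate 3 (0.0804). GAC1, which directs a phosphatase to glycogen synthase, had 10.83, 10.78 and 10.78 in D126 and 11.14, 11.27 and 11.16 in REF, and fell by 0.39 (SE 0.04, adjusted p = 0.000415). GLG2, a primer of glycogen synthesis, had 10.91, 10.81 and 10.73 in D126 and 11.19, 11.14 and 11.14 in REF, and fell by 0.34 (SE 0.06).

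Among genes of oxidative stress defence, 3 of 31 rose and 11 fell. The share that rose, 9.68%, is near the 8.59% of all genes, while 35.5% fell, beside 12.9% of all genes. The count that rose was 0 without REF replicate 3 and 1 without D126 replicate 2. OYE3, an NADPH dehydrogenase, had 11.03, 11.16 and 11.18 in D126 and 11.72, 11.74 and 11.61 in REF, and fell by 0.57 (SE 0.05, adjusted p = 0.000212). TSA2, a minor peroxiredoxin, had 11.70, 11.92 and 11.89 in D126 and 12.26, 12.36 and 12.47 in REF, and fell by 0.53 (SE 0.07). GPX1, a phospholipid hydroperoxide glutathione peroxidase, fell by 0.34 (SE 0.07).

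Of 24 cytosolic and mitochondrial chaperones, 1 rose and 9 fell, and 4 fell without REF replicate 2 or REF replicate 3, and 5 without D126 replicate 3. SSA3, an Hsp70 of stressed and starved cells, had 13.91, 14.11 and 14.05 in D126 and 14.51, 14.58 and 14.58 in REF, and fell by 0.53 (SE 0.06, adjusted p = 0.000333). SSE2, an exchange factor of Hsp70, fell by 0.47 (SE 0.05). Of 24 genes of endoplasmic reticulum folding, 5 rose and 1 fell, and 8 rose without D12 replicate 3 and 3 without any of the REF arrays, D126 replicate 2 or D126 replicate 3, or with the replicate block on all 9 arrays, while 2 fell with the block on the 6. SIL1, an exchange factor of the chaperone Kar2, had 10.25, 10.40 and 10.37 in D126 and values from 9.90 to 10.04 in REF, an increase of 0.36 (SE 0.07, adjusted p = 0.00783), and LHS1, an Hsp70 that acts with Kar2, rose by 0.23 (SE 0.05). The difference between the lists was not tested. HAC1, the regulator of the unfolded protein response named after its values were seen, differed by 0.06.

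Autophagy delivers cytoplasm to the vacuole for breakdown, and its genes are known to be induced on starvation. Of 34 measured genes, 19 fell and 0 rose, 31 lay below 0, and the median was -0.17. The count was 11 without REF replicate 2 and 12 without D126 replicate 3. The kinase gene ATG1, which starts the process, had 11.43, 11.49 and 11.50 in D126 and 11.81, 11.81 and 12.07 in REF, and fell by 0.42 (SE 0.07, adjusted p = 0.00384). ATG34, a receptor for vacuolar delivery of a hydrolase, had 11.57, 11.67 and 11.65 in D126 and 12.12, 12.14 and 12.15 in REF, and fell by 0.51 (SE 0.05, adjusted p = 0.000308). ATG22, a vacuolar exporter of amino acids, had 11.25, 11.33 and 11.27 in D126 and 11.63, 11.72 and 11.69 in REF, and fell by 0.40 (SE 0.04, adjusted p = 0.000283). The D126 and REF values of these genes do not overlap. Members of the conjugation machinery, ATG3 (-0.34), ATG4 (-0.38) and ATG7 (-0.35), were also called, whereas ATG5 (-0.01), ATG2 (0.02) and ATG13 (-0.05) were not, all named after their values were seen. Of 35 proteasome subunits and regulators, 0 rose and 4 fell, which is near the 12.9% of all genes, and 0 fell without REF replicate 2 or D126 replicate 3 and 2 without REF replicate 1, REF replicate 3, D126 replicate 1 or D126 replicate 2, or with the replicate block on all 9 arrays.

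Membrane and lipid genes outside these pathways moved in both directions. Of 20 flippases and genes of plasma membrane domains, 4 rose and 4 fell, and 7 fell on the 6 arrays with or without the replicate block and without D12 replicate 3, but 2 with the block on all 9. Without REF replicate 1, REF replicate 3, D126 replicate 2 or D126 replicate 3, 1 of them fell, without REF replicate 2 it was 2, and 2 rose without REF replicate 1. SUR7, a marker protein of eisosomes, had 12.68, 12.72 and 12.70 in D126 and 12.34, 12.37 and 12.35 in REF, an increase of 0.35 (SE 0.06). FMP45, a member of the same protein family, had 12.42, 12.54 and 12.55 in D126 and 13.02, 13.06 and 13.10 in REF, and fell by 0.56 (SE 0.07, adjusted p = 0.000932). Of 30 phospholipid genes, 4 rose (13.3%) and 2 fell (6.67%), beside 8.59% and 12.9% of all genes. GEP4, a phosphatase of cardiolipin synthesis, had 11.06, 10.98 and 11.07 in D126 and 10.69, 10.57 and 10.61 in REF, an increase of 0.41 (SE 0.05, adjusted p = 0.000833). INO2, the activator of phospholipid genes, had 9.64, 9.71 and 9.75 in D126 and 9.93, 10.03 and 10.17 in REF, and fell by 0.34 (SE 0.06), while its target INO1 had 12.99, 13.11 and 13.06 in D126 and 13.03, 13.06 and 12.99 in REF (0.03, adjusted p = 0.736).

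Of 17 storage lipid genes, 0 rose and 4 fell. AYR1, a reductase of phosphatidic acid synthesis on lipid droplets, had 13.26, 13.27 and 13.27 in D126 and 13.58, 13.58 and 13.54 in REF, and fell by 0.31 (SE 0.03, adjusted p = 0.000467). Without REF replicate 1, 2 of the 17 genes fell. Among 24 genes of multidrug resistance, 2 rose (8.33%) and 4 fell (16.7%), near the shares over all genes. PDR12, an exporter of weak organic acids, had 14.12, 13.99 and 14.07 in D126 and 13.68, 13.45 and 13.44 in REF, an increase of 0.53 (SE 0.06, adjusted p = 0.000706). QDR2 had 8.49, 8.54 and 8.50 in D126 and values from 7.95 to 8.04 in REF, an increase of 0.51 (SE 0.05, adjusted p = 0.000212). Its D12 values of 8.40, 8.24 and 8.27 also lay above the REF range. Of 27 sphingolipid genes, 0 rose and 5 fell, with a median of 0.01, and 3 fell without REF replicate 2 or D126 replicate 1. On the 6 arrays 4 of them rose with the replicate block and 2 without it, 2 rose without D12 replicate 3, and 0 with the block on all 9 arrays. YPC1, a ceramidase, had 11.24, 11.22 and 11.19 in D126 and 11.51, 11.50 and 11.39 in REF, and fell by 0.25 (SE 0.04).

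**Figure D5:**
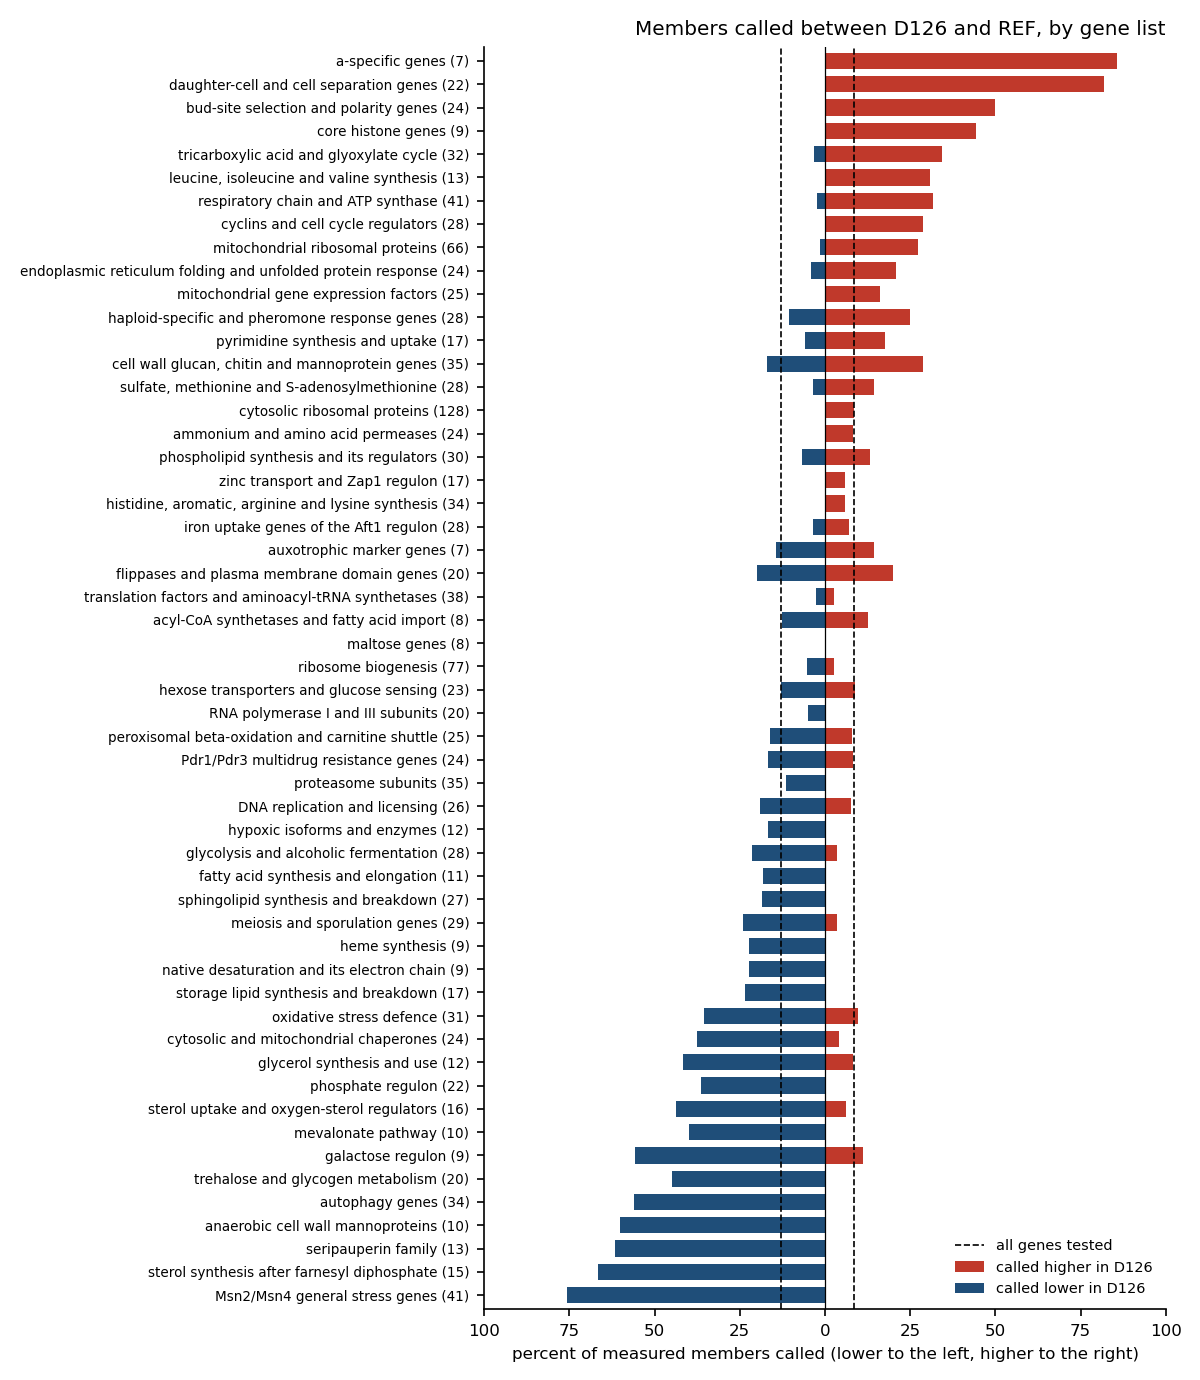
Percent of the measured members of each gene list (number in brackets) that were called higher in D126 (red, to the right) or lower in D126 (blue, to the left), for lists of 7 or more genes. Dashed lines mark the shares over all 5449 genes (8.59% higher and 12.9% lower), and a-specific and daughter-cell genes stand at the top and general stress and sterol genes at the bottom.

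Called genes were spread over all 16 chromosomes. Chromosome medians lay between -0.017 (VIII) and 0.026 (VI). On chromosome I, 16.7% of 90 genes rose and 6.67% fell, while on the other chromosomes the share that rose ran from 6.95% to 10.2%. Among the outermost 10 measured genes of each of the 32 arms, 34 of 320 (10.6%) rose and 55 (17.2%) fell, against 434 (8.46%) and 650 (12.7%) of the 5129 other genes. These shares were not tested.

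The D12 arrays put these differences beside a strain with the D12-desaturase alone, although each comparison shares its D126 or REF arrays with D126 minus REF. D12 minus REF gave 0 called genes by limma, 326 at an unadjusted p under 0.05, with a smallest adjusted p of 0.291. Without D12 replicate 3, 1 gene was called, AAD3 (-1.22, adjusted p = 0.00337, 323 genes at an unadjusted p under 0.05). D126 minus D12 gave 1200 called genes (22%), of which 399 rose (7.32%) and 801 fell (14.7%), and 1122 without D12 replicate 3 (442 higher and 680 lower). The D12 minus REF medians of the lists described here ran from -0.14 (maltose genes) to 0.09 (a-specific genes), beside -0.61 to 0.39 for D126 minus REF.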

How the data were processed

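Total RNA of 3 D126, 3 D12 and 3 REF samples was read on Affymetrix yeast arrays. The deposited values are on the log2 scale, 1 column per array. RMA and affy are the tools named in the submitters' processing notes, without versions. RMA draws all arrays to 1 distribution, which hides a change in the RNA content of cells, and arrays carry no read depth, so their number limits the precision. Array medians over S. cerevisiae genes ran from 10.94 to 10.99. Strain and replicate number were taken from the sample titles.

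Of 10928 probe sets, 7244 carry 1 gene, 1 several and 3683 none in the platform's table. Matched by gene identifier to the R64 gene table, which updated 12 symbols, 5498 probe sets read 5449 genes. For 47 genes with several probe sets the brightest was used, and 115 genes have a probe set shared with similar genes. The background limit, 5.64, is the 95th percentile of 1746 probe sets of genes outside that table, and 117 genes lay below it, 8 of them called.

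limma 3.58.1 in R 4.3.3 fitted strain to all 9 arrays with empirical Bayes moderation (6 residual and 3.10 prior degrees of freedom, median SE 0.048) and Benjamini-Hochberg adjustment. As a check of the code, the fit was also run on simulated independent normal values with the residual SDs of these data. That setting holds no shared replicate effect and no outlying array, so it does not measure the error of the calls here. The 3 values were identical for 7 genes in D126, 3 in D12 and 16 in REF, SCW11 among the last.

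The titles number the arrays. The deviations of same-numbered D126 and REF arrays from their strain means correlated at 0.22, 0.18 and 0.13 over genes (against -0.23 to 0.05 for other numbers). Deviations within a strain sum to 0, so the correlations of same and other numbers are tied. The labels do not say that the numbers mark pairs. The calls therefore come from the fit without the replicate block, which was fitted as an alternative, to the 6 arrays and to all 9. Other alternatives were quantile normalization, centring, a filter on dim genes, all non-control probe sets, mean probe sets, the 6 arrays alone, array weights, robust moderation and leaving out each array. Counts per gene list under these alternatives, and the D12 comparisons without D12 replicate 3, were added after the data were seen.

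Named genes are the 12 largest called increases and decreases without overlap, up to 4 called members of each list (2 as values where 0 were called) and 11 fixed genes. Not every gene that the rule picks is named. A gene can be in several lists, so the counts of different lists are not independent. The comparison and the gene lists were chosen with earlier results of these data known, so list counts and medians are descriptions, with no test of a list. Sequences are not printed here.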

Additional observations from a re-analysis of the deposited data

How the results depend on the processing

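The number of genes called between D126 and REF was 1173 (468 higher, 705 lower). It moved by over 1.5 times when all non-control probe sets were tested together (548, with 190 higher and 358 lower) and with array weights (2615, with 1181 higher and 1434 lower). Leaving out 1 array gave 645 to 1539 genes, 241 to 651 higher and 404 to 888 lower. The replicate block gave 922 genes on all 9 arrays (357 higher and 565 lower), of which 902 were among the 1173, and 1603 on the 6 arrays (697 higher and 906 lower), of which 1137 were among them. Where either block ended or gained the call of a gene whose difference is printed in the report, the report gives it. The same holds where a block moved a list count given there by over 1.5 times. On the 6 arrays there are exceptions, each against 0 in the fit that gave the 1173 calls. There the block gave 1 gene that rose in each of the general stress, reserve carbohydrate, phosphate and autophagy lists. It also gave 1 that fell among leucine, isoleucine and valine genes. Quantile normalization gave 1262 genes, centring 1221 and the 6 arrays alone 1560. Of 190 genes picked by the naming rule, 183 were called, 121 of these under each of the 19 alternatives, and 0 changed direction under any of them. In 337 of their values under an alternative the call was lost, and in 16 a call was gained. Testing all probe sets together ended, among others, the calls of GPD2, MGA2, ACC1, PHO84, UPC2 and ERG12 (adjusted p from 0.0556 to 0.132). List counts also shrank under it. The count that rose was 4 for a-specific genes, 13 for daughter-cell, 5 for bud-site, 7 for mitochondrial ribosomal, 5 for respiratory chain and 1 for cytosolic ribosomal genes. The count that fell was 21 for general stress, 11 for autophagy and 6 for sterol genes after farnesyl diphosphate. The cause was not tested. RMA values near the top of the scale, such as URA3, may be compressed, which was not tested.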
